A study of Sus scrofa with 16 samples.

Results

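The interferon response genes described here are 39 genes that are known to be raised by type I interferon or to carry its signal, given as a list of symbols. They were listed by their known roles, with earlier results of these data known. Of the 39 symbols, 37 were found in the deposited table of 28232 pig genes, and 36 passed the filter on low counts, among 18528 genes tested. ISG20, an exonuclease, never exceeded 0.0681 CPM, the count scaled to library size, in any library and was not tested. IFIT5 and SAMD9 have no row under those symbols.

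Porcine embryonic stem cells (pESCs) were differentiated toward midbrain dopaminergic neurons, and their poly-A RNA was sequenced. The series has 16 libraries, with 2 replicates of each line at day 0 and at days 16, 28 and 45 of differentiation. IVF cells were the line IVF_1_pESC_FIW, from an embryo made by in vitro fertilisation, and PA cells were the line PA_3_pESC_FIW, from a parthenogenetic embryo, which carries no paternal genome. Each embryo origin was thus represented by 1 line, so that origin and line cannot be told apart. No interferon treatment is named for any group. Both lines were kept on mouse embryonic fibroblast feeders in a medium with FGF2, IWR-1 and WH-4-023, and then went through the same steps. CHIR99021, SHH, Noggin and SB431542 were given from day 0, FGF8 from day 9 and also BDNF and ascorbic acid from day 11, and from day 16 BDNF, GDNF, ascorbic acid, dibutyryl-cAMP and DAPT. The labels do not say that replicates were separate cultures, so the p-values measure the spread between these libraries, which may be technical.

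Type I interferons bind a receptor whose kinases, JAK1 and TYK2, phosphorylate transcription factors such as STAT2. With IRF9, STAT2 acts in a complex that binds the interferon-stimulated response element (ISRE) near the start of its target genes and raises their transcription. The products sense foreign nucleic acid, block viral RNA and protein synthesis, mark proteins with ISG15 and widen antigen presentation. Pluripotent stem cells are known to respond weakly to interferon, and neurons and glia can mount this response. The roles given below are known mainly from human and mouse cells.

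The ISRE core, written GAAA, a gap of 2 bases and GAAA on either strand, was searched from 250 bases before to 50 bases after the annotated start of each gene. It was present in 19 of the 37 genes (51.4%), against 1123 of 28207 windows of the same length over all genes (3.98%). Cores that lie before the start alone were found in 15 of the 37 (40.5%), against 3.32% of all windows. The gamma-activated sequence (GAS), TTC, a gap of 3 bases and GAA, was found in 4 of the 37 (10.8%) and in 7.21% of all windows. A match is a description of the sequence and not evidence of a bound site. The stretches below are shown because they hold the cores of genes whose values are described further on. They were read from the Sscrofa11.1 assembly at starts annotated by RefSeq and are written 5′ to 3′ on the strand of the gene, with the fixed bases of each core in capitals. On the opposite strand the core reads TTTC, a gap of 2 bases and TTTC.
IFIH1, distal: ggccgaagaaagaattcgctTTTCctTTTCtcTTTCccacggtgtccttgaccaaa
IFIH1, proximal: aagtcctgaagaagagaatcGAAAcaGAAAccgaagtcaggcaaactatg
OAS2: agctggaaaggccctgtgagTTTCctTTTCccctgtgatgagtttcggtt
IFIT1: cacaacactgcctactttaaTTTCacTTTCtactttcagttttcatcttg
IFIT3: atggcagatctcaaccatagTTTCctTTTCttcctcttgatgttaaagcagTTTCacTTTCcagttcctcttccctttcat
ISG15: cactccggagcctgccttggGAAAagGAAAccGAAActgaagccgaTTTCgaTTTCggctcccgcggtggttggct
HERC5: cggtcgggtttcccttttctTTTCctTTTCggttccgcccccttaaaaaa
IFI6: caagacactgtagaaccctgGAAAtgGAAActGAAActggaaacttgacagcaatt
IFI44L: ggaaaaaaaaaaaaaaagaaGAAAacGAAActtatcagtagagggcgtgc
DTX3L: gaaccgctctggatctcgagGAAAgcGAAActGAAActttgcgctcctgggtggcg
TAP1: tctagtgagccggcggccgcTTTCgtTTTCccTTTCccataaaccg

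On the plus strand of Sscrofa11.1 lie the stretches of IFIT1 (chr14:101237374-101237423), IFIT3 (chr14:101214643-101214723) and ISG15 (chr6:63363047-63363122). On the minus strand lie those of IFIH1 (chr15:68985271-68985326 and chr15:68985139-68985188), OAS2 (chr14:38847686-38847735), HERC5 (chr8:130591224-130591273), IFI6 (chr6:84858049-84858104), IFI44L (chr6:134679210-134679259), DTX3L (chr13:137961390-137961445) and TAP1 (chr7:25071960-25072005). ISG15 and IFIH1 held 3 cores each. The ISG15 cores ran together in 1 stretch that began at position -134 from the start, with 2 on the gene's strand and 1 on the other. A second core of IFI44L, which begins at position 31 after the start, is not printed. In IFI6 and DTX3L 2 cores shared the middle GAAA, and those of IFI6 began at positions -12 and -6. The cores of TAP1 lie just after its start, and the same bases lie before the start of PSMB9, which is 144 bases away on the other strand. The 37 genes are spread over 14 chromosomes, and several are neighbours: IFIT1, IFIT2 and IFIT3, OAS1 and OAS2, MX1 and MX2, IFI44 and IFI44L, RSAD2 and CMPK2, and PARP9 and DTX3L, whose starts are 394 bases apart.

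**Figure D1:**
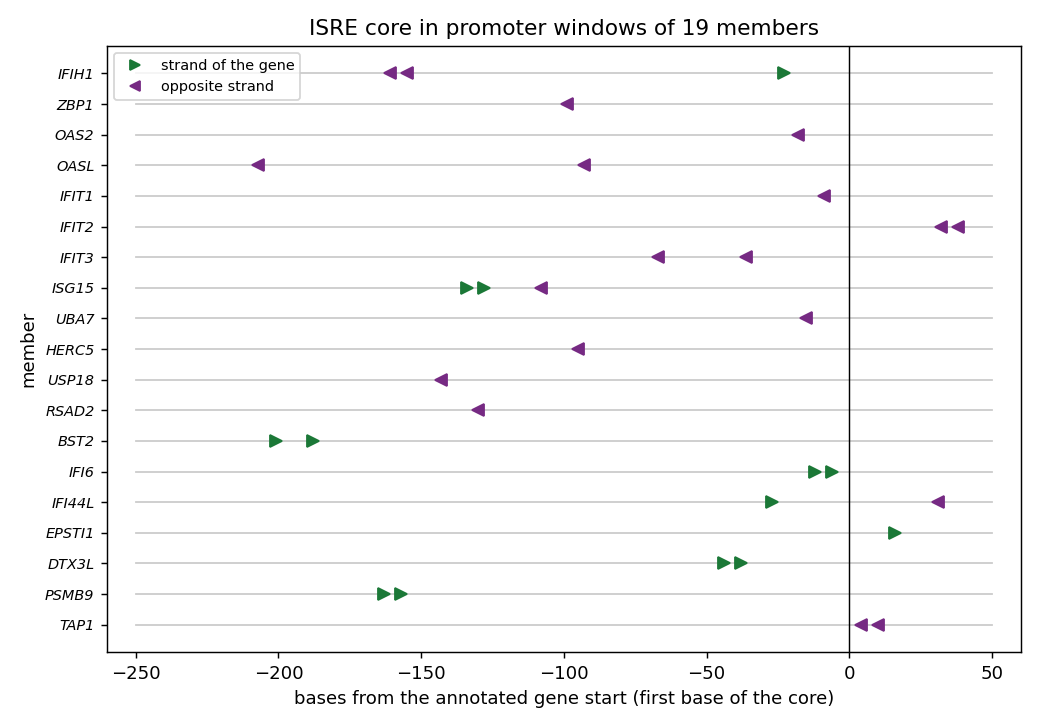
Positions of the ISRE core from 250 bases before to 50 bases after the annotated start of each interferon response gene, with the distance from the start in bases on the x axis, 1 line per gene and the strand of the core by the direction and colour of the triangle. The core is present in 19 of 37 genes.

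Library totals were 39247693 to 52165867 counts, with 3.58% to 8.28% of counts from mitochondrial genes. The replicates of PA cells at day 45 differed more than any other pair, with a median chi-square over genes of 16.9 against 1.73 to 6.92 in the other groups, where counting alone gives 0.455. The labels give midbrain as the tissue from day 16 on. The summed level of 6 pluripotency markers (POU5F1, NANOG, PRDM14, LIN28A, ZFP42, SALL4) was 1977 to 2269 CPM at day 0 and 1.04 to 63.2 CPM later. The 8 neuronal markers in the table (MAP2, STMN2 and others) summed to 1488 to 1967 CPM in IVF and 1837 to 2100.4 CPM in PA cells at day 45. At day 28 they summed to 2476 to 3353 CPM in IVF and 4304 to 4367 CPM in PA cells. The 7 dopaminergic markers (TH, DDC and others) summed to 232 to 275 and 148 to 192 CPM at day 45. Their day 28 sums were 158 to 179 CPM in IVF and 244 to 250 CPM in PA cells. Levels below are CPM scaled by the trimmed mean of M values (TMM), given for replicates 1 and 2 in that order. Differences are log2 fold changes ± SE from the edgeR quasi-likelihood fit. The SE is derived, as the absolute log2 fold change divided by the square root of the F statistic. A gene rose or fell where its Benjamini-Hochberg adjusted p over all genes tested was below 0.05 and the change at least 2-fold. The median log2 fold change over all genes tested lay between -0.028 and 0.059 in every comparison.

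The interferon response genes were low before differentiation and at day 16 and high at days 28 and 45 in both lines. In IVF cells the 37 genes together took 327 and 357 CPM at day 0, 334 and 386 at day 16, 1813 and 1716 at day 28, and 2124 and 1759 at day 45. In PA cells they took 402 and 394 CPM at day 0, 192 and 204 at day 16, 908 and 1006 at day 28, and 2329 and 1555 at day 45. The sums of the lines did not overlap at day 0, where PA cells were higher, or at days 16 and 28, where PA cells were lower, and overlapped at day 45. Single genes weigh much in these sums. At day 0 HERC5 was at 105 and 114 CPM in IVF and 188 and 185 CPM in PA cells. EIF2AK2 ran the other way, at 106 and 118 CPM in IVF and 35.4 and 33.4 CPM in PA cells. At day 45 IFI6 alone was at 1084 and 877 CPM in IVF and 692 and 293 CPM in PA cells. By group mean, 17 of the 37 genes were highest at day 28 and 16 at day 45 in IVF cells, whereas 34 of 37 were highest at day 45 in PA cells. In these bulk samples, fewer cells that express a gene and less RNA per cell cannot be told apart.

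**Figure D2:**
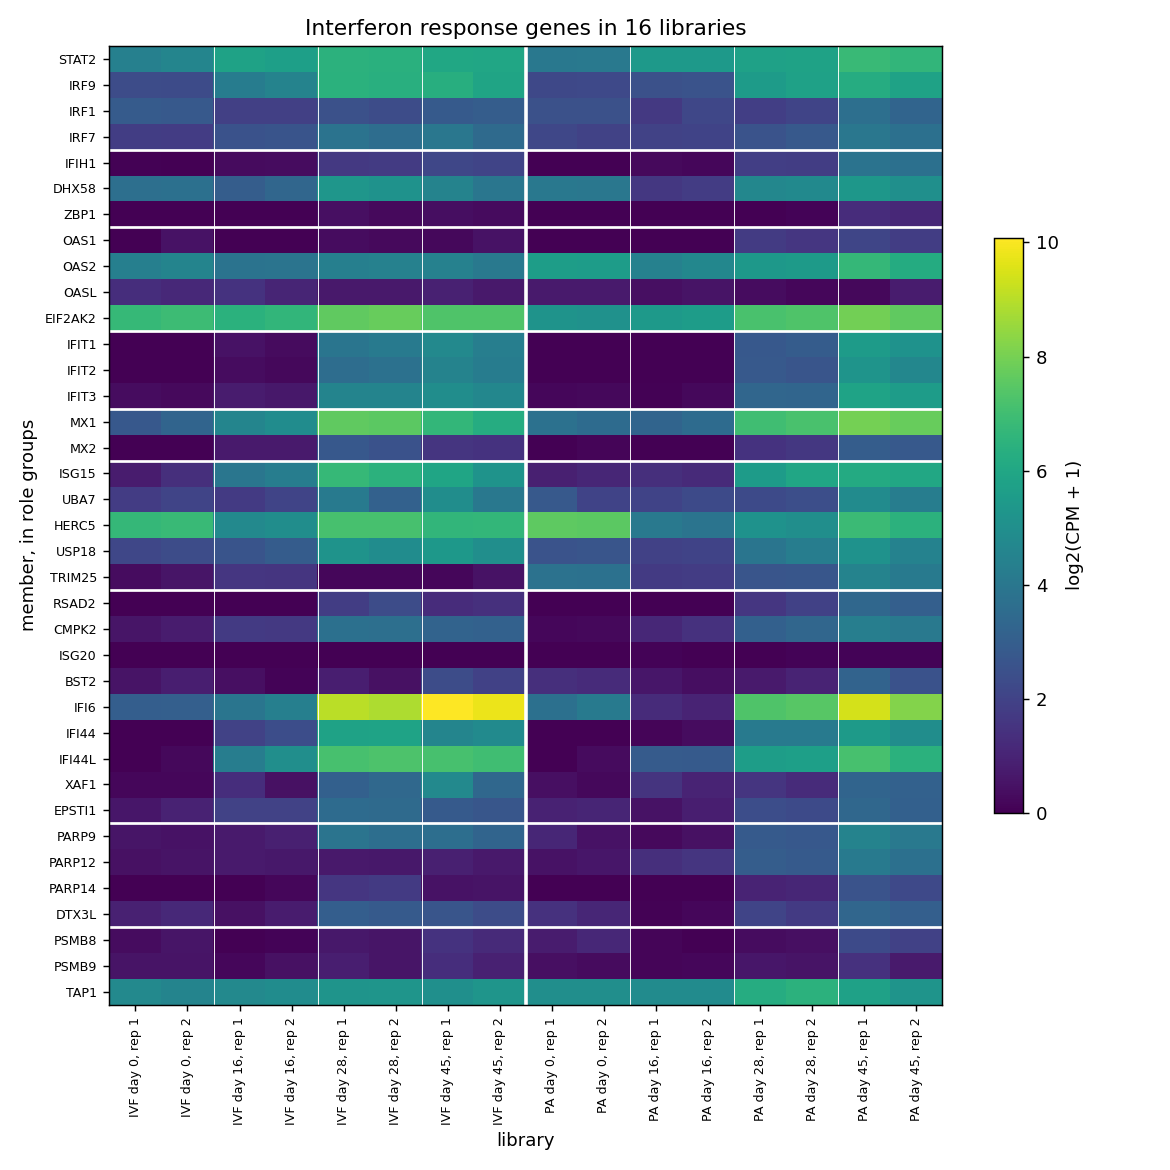
Level of each interferon response gene in the 16 libraries, as log2(CPM + 1), with genes in rows by role, libraries in columns by line and day, and dark blue for low and yellow for high levels. Most rows are darker at days 0 and 16 than at days 28 and 45.

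From day 0 to day 16 part of the set rose in IVF cells, and in PA cells more members fell than rose. In IVF cells 16 of the 36 tested genes rose and 4 fell, where 20.2% of all genes tested rose and 14.0% fell. Their median log2 fold change was 0.87, or 0.71 with the 6 genes at 0 in a group set to their bound. In PA cells 7 rose and 10 fell, against 18.0% and 14.4% of all genes, with a median of -0.20. The 7 that rose in PA cells were STAT2, IFIH1, CMPK2, IFI44, IFI44L, XAF1 and PARP12. The 4 that fell in IVF cells were IRF1, OAS1, HERC5 and PSMB8. Without replicate 2 of IVF cells at day 0, 2 genes and not 4 fell in IVF cells, since OAS1 and PSMB8 were no longer called. The MX2 fall in PA cells rests on 5 counts in replicate 2 at day 0, and the 10 became 9 without that library.

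Between days 16 and 28 most of the set rose in both lines. In IVF cells 27 of 36 genes rose and 1 fell, where 10.1% of all genes rose and 11.6% fell, and the median was 2.50. The 1 that fell was TRIM25, a ubiquitin ligase of the RNA-sensing pathway. In PA cells 27 rose and 0 fell, where 18.3% and 16.2% of all genes did, and the median was 2.85. Over the same step, the summed level of 9 vascular leptomeningeal and fibroblast markers (COL1A1, COL1A2 and others) went from 278 to 289 to 671 to 820.1 CPM in IVF cells and from 312 to 376 to 485 to 562 CPM in PA cells. COL1A2 made most of the day 28 sums, at 436 and 380 CPM in IVF and 411 and 355 CPM in PA cells. PDGFRB went down, from 103 and 106 to 29.7 and 24.0 CPM in IVF cells. In PA cells PDGFRB went from 147 and 97.1 to 16.5 and 14.9 CPM. FBLN1 in both lines and COL1A1 in PA cells were also lower at day 28, and the means of the other markers were higher.

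From day 28 to day 45 the lines parted. In IVF cells 3 genes rose (BST2, IFI6, PSMB8) and 7 fell (DHX58, MX1, MX2, ISG15, RSAD2, IFI44, PARP14), against 10.1% and 6.61% of all genes, and the median was -0.03. In PA cells 25 rose and 0 fell, against 11.0% and 8.25% of all genes, and the median was 1.43. The IVF counts depended on single libraries: 3 and not 7 fell without replicate 2 at day 45, and 1 and not 3 rose without replicate 2 at day 28. From day 16 to day 45, 28 genes rose and 1 (TRIM25) fell in IVF cells, against 14.4% and 12.1% of all genes, with a median of 2.35. In PA cells 34 of 36 rose and 0 fell over that span, against 18.5% and 13.9%, with a median of 3.97. The exceptions in PA cells were OASL and TAP1, at 0.20 and 0.67 on the log2 scale. The counts of 0 in PA cells were also 0 by DESeq2 and by limma on log2(TPM + 1), and at an unadjusted p below 0.05 edgeR gave 0 lower genes from day 16 to day 28, 1 from day 28 to day 45 and 0 from day 16 to day 45.

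**Figure D3:**
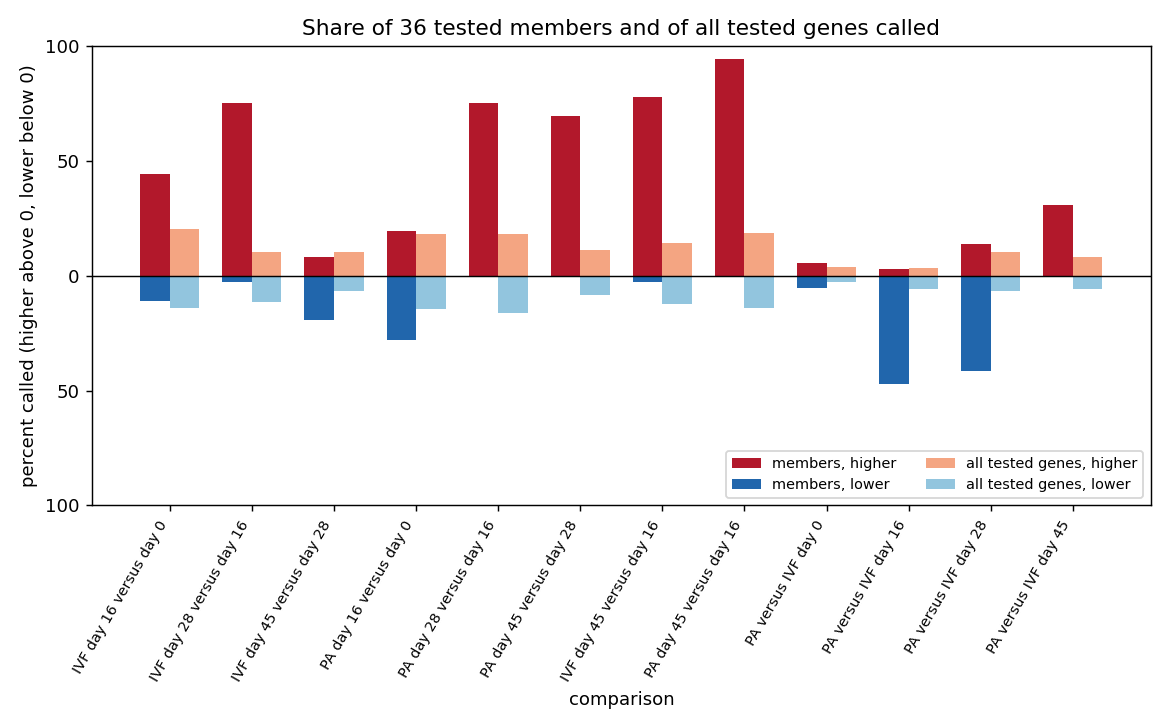
Percent of the 36 tested interferon response genes called higher or lower in each comparison, beside the percent of all 18528 genes tested. Among the steps from one day to the next, the bars of the interferon response genes exceed those of all genes most from day 16 to day 28 in both lines (27 of 36 higher) and from day 28 to day 45 in PA cells (25 of 36).

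Between the lines the sign of the difference changed with the day. At day 0, 2 genes were higher in PA than in IVF cells (OAS2, TRIM25) and 2 lower (EIF2AK2, CMPK2), against 3.96% and 2.64% of all genes, with a median of 0.29. At day 16, 1 was higher (PARP12) and 17 were lower in PA cells, against 3.50% and 5.59%, with a median of -1.01, or -0.98 with genes at 0 set to their bound. At day 28, 5 were higher (OAS1, OAS2, TRIM25, PARP12, TAP1) and 15 lower, against 10.3% and 6.75%, with a median of -0.92. At day 45, 11 were higher and 0 lower, against 8.32% and 5.62%, with a median of 0.77. The 11 were IFIH1, ZBP1, OAS1, OAS2, MX1, MX2, TRIM25, RSAD2, CMPK2, PARP12 and PARP14. ZBP1 lost its call with any 1 of the 16 libraries left out (adjusted p of 0.0503 to 0.217), with the replicate number as a block (adjusted p = 0.0761), with no filter on low counts (0.0745) and by DESeq2 (adjusted p = 0.161). At an unadjusted p below 0.05, 2 genes were lower in PA cells at day 45 by edgeR, and 0 were called lower by DESeq2 or limma. With genes limited to those with counts in every library, 25 members were tested and 5 were higher at day 45.

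The steps themselves differed between the lines by an interaction contrast of the same fit. From day 0 to day 16 the step of 13 genes was lower in PA than in IVF cells and that of 0 higher, against 4.56% and 2.28% of all genes, with a median difference of -1.28. From day 16 to day 28 it was higher for 11 and lower for 3 (UBA7, HERC5, XAF1), against 9.84% and 5.35%, with a median of 0.73. From day 28 to day 45 it was higher for 23 and lower for 0, against 7.87% and 7.91%, with a median of 1.45. For IFIT1, IFIT2 and MX2, which were at 0 in PA cells at day 16, the day 28 contrast turned negative on the log2(TPM + 1) scale, at -0.80, -0.73 and -0.41. On that scale the median of the day 28 contrast was 0.0071. At an unadjusted p below 0.05, 3 genes had a higher step by day 16 and 1 a lower step by day 45 by edgeR, and DESeq2 and limma called 0 of either over the same genes, while DESeq2 over the 25 with counts in every library called 2 with a higher step by day 16. Without replicate 2 of PA cells at day 0 the day 16 contrast of MX2 was no longer called.

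**Figure D4:**
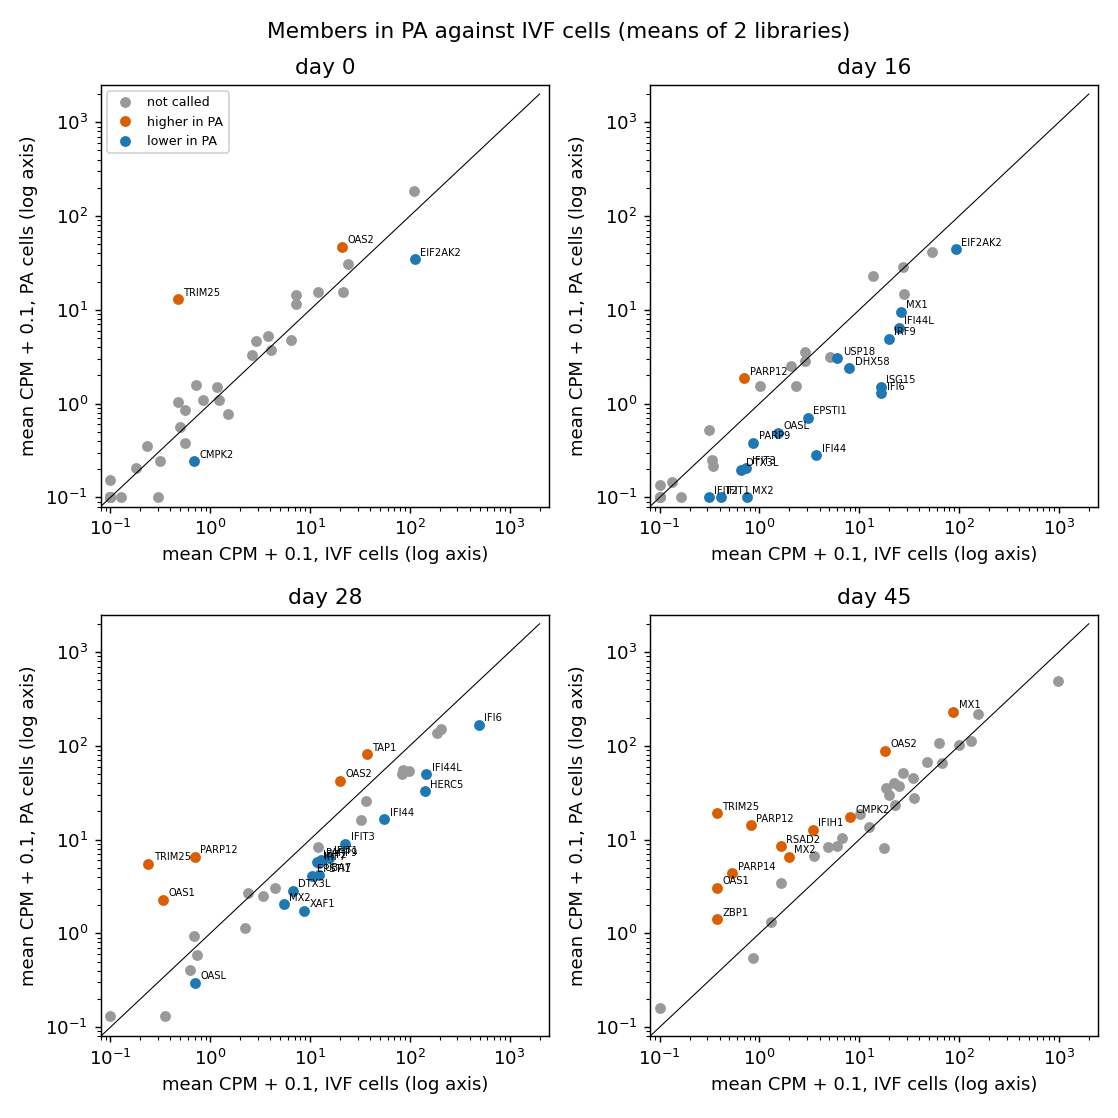
Mean CPM + 0.1 of 2 libraries in PA cells (y, log axis) against IVF cells (x, log axis) for each interferon response gene, with 1 panel per day, the line of equal levels and the names of genes called. More genes lie below the line than above it at days 16 and 28 and above it at day 45, and the median log2 fold change is -1.01 at day 16, -0.92 at day 28 and 0.77 at day 45.

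Of the factors that carry the signal, STAT2 and IRF9 act in the complex that binds the ISRE, IRF7 drives interferon genes and IRF1 is a further transcription factor of the pathway. STAT2 was at 20.1 and 22.9 at day 0, 55.3 and 50.9 at day 16, 88.0 and 83.2 at day 28 and 63.9 and 62.2 at day 45 CPM in IVF cells. PA cells held 15.4 and 15.7 at day 0, 41.2 and 41.4 at day 16, 54.1 and 55.4 at day 28 and 114 and 99.2 at day 45 CPM. STAT2 rose from day 0 to day 16 in both lines, by 1.30 ± 0.10, adjusted p = 9.65e-08 in IVF and 1.41 ± 0.11, adjusted p = 5.25e-08 in PA cells, and at day 45 the PA libraries lay above the IVF libraries without reaching the 2-fold limit.

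IRF9 behaved differently at day 16. It was at 4.08 and 3.88 at day 0, 18.0 and 21.7 at day 16, 85.2 and 80.8 at day 28 and 78.8 and 57.6 at day 45 CPM in IVF cells and at 3.54 and 3.72 at day 0, 4.63 and 4.95 at day 16, 45.4 and 53.8 at day 28 and 75.0 and 55.0 at day 45 CPM in PA cells. The libraries of PA cells at days 0 and 16 all lay below 5 CPM, and their rise came from day 16 to day 28 (3.37 ± 0.19, adjusted p = 5.03e-09), after a day 16 step of 0.40 (adjusted p = 0.091), whereas IVF cells rose at both steps (2.31 ± 0.19 and 2.07 ± 0.17). At day 16 IRF9 was lower in PA cells (-2.05 ± 0.18, adjusted p = 4.09e-06). IRF1 fell from 6.52 and 6.05 to 2.74 and 2.77 CPM in IVF cells (-1.19 ± 0.23, adjusted p = 0.000447) and rose in PA cells from 2.69 and 3.19 CPM at day 28 to 11.9 and 8.58 CPM at day 45 (1.80 ± 0.23, adjusted p = 2.45e-05). IRF7 rose from day 16 to day 28 in IVF cells (1.28 ± 0.20) and from day 28 to day 45 in PA cells (1.31 ± 0.20). STAT2 shares 309 exon bases with IL23A on the other strand, and how reads there were assigned is not given in the sources used here.

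**Figure D5:**
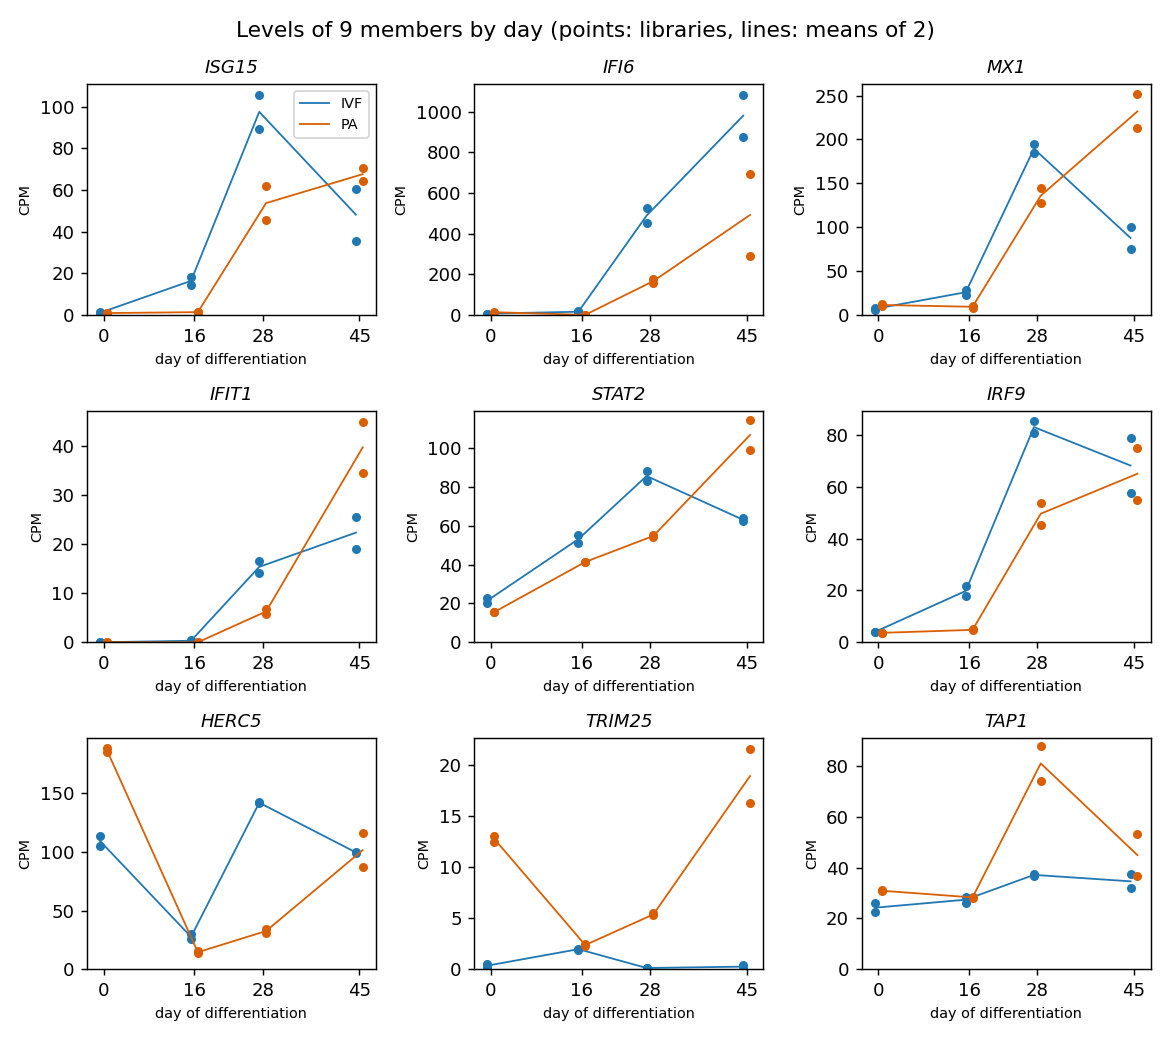
Level in CPM against the day of differentiation for 9 interferon response genes, with 1 point per library and lines through the means of 2, in IVF (blue) and PA (orange) cells. The means of most of these genes go up between days 16 and 28, and those of IRF9, ISG15 and IFI6 are lower in PA than in IVF cells at day 16.

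The sensors detect foreign nucleic acid: IFIH1 (MDA5) binds long double-stranded RNA, DHX58 (LGP2) modulates that pathway and ZBP1 binds Z-form nucleic acid. DHX58, which has no ISRE core in its window, was at 11.7 and 12.2 at day 0, 6.81 and 8.94 at day 16, 38.7 and 34.4 at day 28 and 21.8 and 14.7 at day 45 CPM in IVF cells and at 15.4 and 15.2 at day 0, 2.07 and 2.51 at day 16, 24.2 and 26.7 at day 28 and 39.7 and 31.6 at day 45 CPM in PA cells. It fell in PA cells at day 16 (-2.74 ± 0.21, adjusted p = 8.34e-08) and rose by day 28 in both lines (2.21 ± 0.20 in IVF, 3.47 ± 0.22 in PA). The fall in IVF cells from day 28 to day 45 (-1.002 ± 0.19, adjusted p = 0.000775) was just past the 2-fold limit and was lost without replicate 2 at day 45, at -0.74. It was also lost without 3 other libraries.

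IFIH1, whose window holds 3 cores, was nearly silent before day 28. It was at 0.0543 and 0 at day 0, 0.212 and 0.256 at day 16, 2.20 and 2.36 at day 28 and 3.45 and 3.18 at day 45 CPM in IVF cells and at 0 in both libraries at day 0, 0.182 and 0.125 at day 16, 2.65 and 2.60 at day 28 and 13.2 and 12.0 at day 45 CPM in PA cells. At day 45 the PA libraries lay above the IVF libraries (1.93 ± 0.26, adjusted p = 1e-04). At day 0 IFIH1 had 2 counts in IVF cells and 0 in PA cells, so the day 16 level was 8.73-fold higher in IVF cells (95% counting interval 2.15 to 76.5) and at least 4.62-fold higher in PA cells, with the floor of 3 counts over the group. ZBP1 had 0 counts in every library of days 0 and 16. It was at 0.305 and 0.240 CPM in IVF and 1.46 and 1.17 CPM in PA cells at day 45. By then all 3 sensors had risen over day 16 in both lines, where 14.4% of all genes tested rose in IVF and 18.5% in PA cells. The rise of DHX58 in IVF cells over that span was 0.90 without replicate 1 at day 45, below the 2-fold limit. That of ZBP1 in IVF cells rests on 26 counts against 0.

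Among the enzymes switched on by double-stranded RNA, the OAS proteins make the oligoadenylates that activate RNase L, and EIF2AK2 (PKR) phosphorylates a translation initiation factor. EIF2AK2 was at 106 and 118 at day 0, 85.2 and 99.6 at day 16, 197 and 212 at day 28 and 157 and 156 at day 45 CPM in IVF cells. The level in PA cells was 35.4 and 33.4 at day 0, 41.4 and 46.7 at day 16, 146 and 158 at day 28 and 243 and 198 at day 45 CPM. It was lower in PA cells at day 0 (-1.70 ± 0.12, adjusted p = 5.25e-07), and the lines no longer differed 2-fold from day 28 on. The rise from day 16 to day 28 was 1.15 ± 0.12 in IVF and 1.79 ± 0.12 in PA cells. The lower level in PA cells at day 16 (-1.07 ± 0.12, adjusted p = 2.63e-05) was just past the limit, and was -0.95 without replicate 2 of IVF and -0.98 without replicate 1 of PA cells.

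OAS2 lay higher in PA than in IVF libraries at every day. In IVF cells it stayed between 13.5 and 22.2 CPM in all 8 libraries, and in PA cells it was at 47.7 and 46.2 at day 0, 20.8 and 24.7 at day 16, 41.0 and 44.0 at day 28 and 105 and 73.0 at day 45 CPM. It was higher in PA cells at day 0 (1.17 ± 0.16, adjusted p = 0.00029) and at day 45 (2.29 ± 0.17, adjusted p = 5.17e-07). In PA cells it fell by day 16 (-1.05 ± 0.16, adjusted p = 7.41e-05), a call that was lost without replicate 1 at day 16 (-0.93). Its rise from day 28 to day 45 (1.06 ± 0.16, adjusted p = 0.000112) was lost without replicate 1 at day 45 (0.78). OAS1 reached only 3.32 and 2.59 CPM in PA and 0.153 and 0.400 CPM in IVF cells at day 45, and its call as lower at day 16 in IVF cells rests on 15 counts in 1 library of day 0. OAS1 shares 147 exon bases with RPH3A on the same strand. OASL never exceeded 1.80 CPM in any library.

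The IFIT proteins bind foreign RNA and block its translation. All 3 measured members were near 0 at day 0 and highest at day 45 by group mean, and they rose together from day 16 to day 28 in both lines. IFIT3 was at 0.245 and 0.185 at day 0, 0.700 and 0.575 at day 16, 22.3 and 22.6 at day 28 and 29.7 and 24.6 at day 45 CPM in IVF cells. For PA cells the values were 0.137 and 0.148 at day 0, 0.0454 and 0.167 at day 16, 9.05 and 8.90 at day 28 and 56.3 and 46.0 at day 45 CPM. All 4 libraries of day 45 and all 4 of day 28 lay above every earlier library. The rise of IFIT3 from day 16 to day 28 was 5.13 ± 0.23, adjusted p = 2.53e-09 in IVF and 6.33 ± 0.29, adjusted p = 1.23e-09 in PA cells, and only PA cells rose again by day 45 (2.51 ± 0.18, adjusted p = 2.3e-07), a step that differed from that of IVF cells (2.24 ± 0.25, adjusted p = 3.28e-05).

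IFIT1 had 0 counts in both lines at day 0 and in PA cells at day 16. It was at 0.403 and 0.213 at day 16, 14.1 and 16.7 at day 28 and 25.6 and 19.1 at day 45 CPM in IVF cells and at 5.86 and 6.69 at day 28 and 45.0 and 34.5 at day 45 CPM in PA cells. IFIT1 was at least 192-fold higher at day 28 than at day 16 in PA cells, and IFIT2 at least 174-fold. In IVF cells the rise of IFIT1 over that step was 5.63 ± 0.31, adjusted p = 1.19e-07. At day 16 IFIT1 was at least 9.44-fold and IFIT2 at least 6.51-fold lower in PA than in IVF cells, which held 29 and 20 counts. At day 28 all 3 were lower in PA cells, IFIT3 by -1.32 ± 0.18, adjusted p = 4.78e-05, but the IFIT2 call was lost without replicate 2 of either line at day 28 (-0.94 for IVF, -0.95 for PA) and on the log2(TPM + 1) scale (-0.91). At day 45 IFIT1 was at 0.83 (adjusted p = 0.0109), short of the 2-fold limit. The IFIT genes are neighbours of similar sequence, and reads shared between them could be split by the counting.

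MX1 and MX2 are dynamin-like GTPases that trap viral particles. MX1 was at 5.76 and 8.50 at day 0, 23.1 and 29.0 at day 16, 194 and 184 at day 28 and 100.02 and 75.6 at day 45 CPM in IVF cells and at 12.4 and 10.6 at day 0, 8.40 and 10.6 at day 16, 127 and 144 at day 28 and 251 and 212 at day 45 CPM in PA cells. IVF cells peaked at day 28 and PA cells at day 45, and the day 45 libraries of the lines did not overlap. MX1 was lower in PA cells at day 16 (-1.46 ± 0.19, adjusted p = 0.000118) and higher at day 45 (1.40 ± 0.18, adjusted p = 6.28e-05). Its fall in IVF cells after day 28 (-1.11 ± 0.18, adjusted p = 0.000278) shrank to -0.92 without replicate 2 at day 45. MX2 was likewise highest at day 28 in IVF and at day 45 in PA cells, with 5.92 and 4.85 CPM at day 28 and 1.92 and 1.82 CPM at day 45 in IVF cells, and 1.81 and 2.08 and 6.88 and 5.99 CPM in PA cells. At day 16 it had 61 counts in IVF cells and 0 in PA cells, at least 19.9-fold lower.

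ISG15 is a ubiquitin-like protein that is joined to other proteins by UBA7 and, in human cells, by HERC5, and removed by USP18. ISG15 was at 0.707 and 1.53 at day 0, 14.6 and 18.2 at day 16, 106 and 89.2 at day 28 and 60.7 and 35.7 at day 45 CPM in IVF cells. PA cells had 0.868 and 1.10 at day 0, 1.57 and 1.27 at day 16, 45.6 and 61.8 at day 28 and 70.7 and 64.5 at day 45 CPM. ISG15 thus rose in IVF cells by day 16 (3.87 ± 0.33, adjusted p = 1.67e-07). In PA cells both day 16 libraries lay slightly above those of day 0, without a called rise. At day 16 the lines differed by -3.53 ± 0.31, adjusted p = 3.25e-06. Between days 16 and 28 ISG15 rose by 2.57 ± 0.26, adjusted p = 2.26e-06 in IVF and by 5.24 ± 0.32, adjusted p = 9.26e-09 in PA cells. The fall in IVF cells from day 28 to day 45 (-1.02 ± 0.25, adjusted p = 0.00438) was just past 2-fold and was lost without replicate 2 at day 45 (-0.68), among others. ISG15 shares 69 exon bases with LOC110261384 on the other strand.

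HERC5 was among the members already high at day 0, at 105 and 114 at day 0, 25.7 and 29.7 at day 16, 141 and 142 at day 28 and 99.0 and 100.1 at day 45 CPM in IVF cells. The PA libraries were at 188 and 185 at day 0, 15.7 and 13.6 at day 16, 34.4 and 31.0 at day 28 and 116 and 87.1 at day 45 CPM. In both lines it fell by day 16 (-1.98 ± 0.13, adjusted p = 1.68e-08 in IVF, -3.67 ± 0.14, adjusted p = 1.03e-10 in PA) and rose again by day 28 (2.35 ± 0.14 and 1.16 ± 0.13). The day 28 libraries of IVF cells lay above those of PA cells (-2.12 ± 0.13, adjusted p = 1.06e-07), and at day 45 they overlapped. USP18 rose from day 16 to day 28 by 2.44 ± 0.24 in IVF and 2.46 ± 0.25 in PA cells. UBA7 rose at that step in IVF cells (2.14 ± 0.41) and was at 0.25 in PA cells (adjusted p = 0.622). The difference of those UBA7 steps (-1.88 ± 0.58, adjusted p = 0.0256) was lost without any 1 of 5 libraries, such as replicate 1 of IVF cells at day 28 (-1.25). UBA7 shares 3259 exon bases with TRAIP on the same strand, so its level is uncertain.

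TRIM25 set the lines apart. It was at 0.245 and 0.502 at day 0, 2.04 and 1.94 at day 16, 0.139 and 0.143 at day 28 and 0.131 and 0.420 at day 45 CPM in IVF cells. Its level in PA cells was 13.1 and 12.5 at day 0, 2.32 and 2.46 at day 16, 5.30 and 5.49 at day 28 and 21.6 and 16.3 at day 45 CPM. At day 16 the lines differed by 0.27 on the log2 scale without a call, while at days 0, 28 and 45 every PA library was at least 5.30 CPM and every IVF library at most 0.502 CPM. TRIM25 was higher in PA cells by 5.08 ± 0.35, adjusted p = 3.66e-07 at day 0, by 5.23 ± 0.39, adjusted p = 4.39e-07 at day 28 and by 6.07 ± 0.36, adjusted p = 7.25e-08 at day 45. From day 16 to day 28 it fell in IVF cells (-3.79 ± 0.40, adjusted p = 3.75e-06) and rose in PA cells (1.17 ± 0.28, adjusted p = 0.00204). On the log2(TPM + 1) scale both steps were smaller, at -0.80 and 0.96, and were not called.

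Of the other antiviral effectors, IFI6, a membrane protein that limits cell death and viral replication, reached the highest TPM of all members, as given further on. It was at 7.15 and 7.29 at day 0, 14.0 and 19.2 at day 16, 525 and 453 at day 28 and 1084 and 877 at day 45 CPM in IVF cells. PA libraries held 12.2 and 16.2 at day 0, 1.36 and 1.02 at day 16, 157 and 177 at day 28 and 692 and 293 at day 45 CPM. The PA libraries fell below their day 0 level at day 16 (-3.58 ± 0.39, adjusted p = 2.09e-06) and then rose by 7.13 ± 0.40, adjusted p = 5.57e-09 to day 28. At day 16 IFI6 was lower in PA than in IVF cells (-3.80 ± 0.38, adjusted p = 1.24e-05). The rise after day 28 in PA cells (1.56 ± 0.29, adjusted p = 0.000576) rests on replicate 1 of day 45 and was 0.80 without it. In IVF cells the rise by day 16 (1.20 ± 0.32, adjusted p = 0.00456) was 0.96 without replicate 2 of day 16, and the rise after day 28 (1.00 ± 0.28, adjusted p = 0.0116) was 0.90 without replicate 2 of day 28 and 0.84 without replicate 1 of day 45.

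By TPM, a level scaled to gene length and library size, the order of the members changed with the day. At day 0 HERC5 led, with 41.0 ± 2.48 TPM (SD, n = 2) in IVF and 62.6 ± 2.103 TPM in PA cells. At day 16 ISG15 led in IVF cells (62.1 ± 9.06 TPM), within the spread of IFI6 (52.3 ± 11.12 TPM), and TAP1 in PA cells (21.2 ± 0.199 TPM). At day 28 IFI6 led in both lines, with 1774 ± 152 TPM in IVF and 603 ± 52.1 TPM in PA cells, followed by ISG15 with 424 ± 43.1 and 232 ± 50.04 TPM. At day 45 IFI6 stood at 2968 ± 235 TPM in IVF and 1621 ± 796 TPM in PA cells, ahead of ISG15 (174 ± 52.1 and 273 ± 8.71 TPM).

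IFI44L and its neighbour IFI44 appeared at day 16 in both lines. IFI44L was at 0 and 0.159 at day 0, 18.5 and 31.0 at day 16, 141 and 152 at day 28 and 142 and 125 at day 45 CPM in IVF cells and at 0 and 0.211 at day 0, 6.41 and 6.20 at day 16, 48.5 and 50.5 at day 28 and 139 and 85.1 at day 45 CPM in PA cells. It rose from day 16 to day 28 by 2.57 ± 0.30, adjusted p = 9.34e-06 in IVF and 2.97 ± 0.32, adjusted p = 1.81e-06 in PA cells, and was lower in PA cells at day 16 (-1.97 ± 0.31, adjusted p = 0.000497) and at day 28 (-1.57 ± 0.29, adjusted p = 0.000668). Its rise in PA cells by day 45 (1.18 ± 0.29, adjusted p = 0.00423) was 0.78 without replicate 1 of that day. IFI44 had 0 counts in all 4 libraries of day 0 and 341 counts at day 16 in IVF cells, at least 90.2-fold higher. In PA cells it had 17 counts at day 16, at least 5.61-fold higher.

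The radical SAM enzyme RSAD2 (viperin) and its neighbour CMPK2 act in the same antiviral nucleotide pathway. RSAD2 had 0 counts in all 8 libraries of days 0 and 16 and was at 2.54 and 4.06 at day 28 and 1.46 and 1.60 at day 45 CPM in IVF and 1.99 and 2.84 at day 28 and 9.35 and 7.36 at day 45 CPM in PA cells. It was at least 103-fold higher at day 28 than at day 16 in IVF cells and at least 73.5-fold higher in PA cells. At day 45 the PA libraries were higher (2.45 ± 0.34, adjusted p = 0.000385), and so were those of CMPK2 (1.13 ± 0.19, adjusted p = 0.000437), which was at 8.18 and 7.72 CPM in IVF and 19.1 and 15.7 CPM in PA cells. Without replicate 1 of PA cells at day 45 the difference of CMPK2 was 0.98. The fall of RSAD2 in IVF cells after day 28 (-1.10 ± 0.33, adjusted p = 0.0234) was lost without replicate 2 of day 28 (-0.73) or either library of day 45.

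BST2 (tetherin), which holds budding virus at the cell surface, was at 0.435 and 0.792 at day 0, 0.339 and 0.0852 at day 16, 0.812 and 0.367 at day 28 and 4.06 and 2.86 at day 45 CPM in IVF and at 1.60 and 1.37 at day 0, 0.545 and 0.292 at day 16, 0.658 and 1.03 at day 28 and 8.32 and 4.86 at day 45 CPM in PA cells. It rose late, from day 28 to day 45, by 2.54 ± 0.50, adjusted p = 0.00115 in IVF and 2.97 ± 0.49, adjusted p = 0.000237 in PA cells. EPSTI1 rose from day 16 to day 28 in both lines (1.80 ± 0.26 in IVF, 2.72 ± 0.30 in PA). XAF1, a promoter of cell death, rose in IVF cells from 1.48 and 0.362 to 7.62 and 9.56 CPM (3.21 ± 0.55, adjusted p = 0.000277) and was at 1.89 and 0.981 and then 1.91 and 1.38 CPM in PA cells (0.21, adjusted p = 0.77), a difference of -3.01 ± 0.77, adjusted p = 0.0101. Without replicate 1 of PA cells at day 16 that difference was -2.47 and was not called (adjusted p = 0.0644). XAF1 shares 1302 exon bases with C12H17orf100 on the same strand, so its level is uncertain. All 8 tested effectors rose from day 28 to day 45 in PA cells (11.0% of all genes), against 2 that rose and 2 that fell in IVF cells (10.1% and 6.61%). Without replicate 1 of PA cells at day 45 only 3 of the 8 kept the call, since CMPK2 (0.93), IFI6, IFI44 (0.87), IFI44L and EPSTI1 (0.91) were below the 2-fold limit.

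PARP9 and DTX3L form a complex that adds ADP-ribose and ubiquitin, and PARP12 and PARP14 are ADP-ribosyltransferases. PARP9 was at 0.489 and 0.423 at day 0, 0.657 and 0.873 at day 16, 13.7 and 11.6 at day 28 and 11.6 and 8.54 at day 45 CPM in IVF cells. The values in PA cells were 1.10 and 0.423 at day 0, 0.204 and 0.355 at day 16, 6.18 and 5.84 at day 28 and 21.5 and 16.0 at day 45 CPM. DTX3L was at 0.924 and 1.21 at day 0, 0.382 and 0.724 at day 16, 7.03 and 6.28 at day 28 and 5.32 and 4.12 at day 45 CPM in IVF cells and at 1.69 and 1.14 at day 0, 0.0454 and 0.146 at day 16, 3.23 and 2.27 at day 28 and 9.03 and 7.28 at day 45 CPM in PA cells. Both were at or below 1.69 CPM until day 16 and several-fold above their day 16 level from day 28. From day 0 to day 16 they parted in IVF cells, where the mean of PARP9 went up and that of DTX3L down. Between days 16 and 28 PARP9 rose by 4.05 ± 0.34 in IVF and 4.40 ± 0.39 in PA cells, and DTX3L by 3.58 ± 0.36 and 4.78 ± 0.47. From day 28 to day 45 only PA cells had a called rise, of 1.64 ± 0.29, adjusted p = 0.000363 for PARP9 and 1.56 ± 0.31, adjusted p = 0.00097 for DTX3L, and these steps differed from those of IVF cells (1.97 ± 0.40 and 2.06 ± 0.43). The exons of this pair share 227 bases on opposite strands.

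PARP12 had no called step in IVF cells and rose at each step in PA cells. It stayed between 0.353 and 0.829 CPM in all 8 IVF libraries and was at 0.411 and 0.528 at day 0, 1.57 and 1.94 at day 16, 6.80 and 6.14 at day 28 and 16.2 and 12.1 at day 45 CPM in PA cells. The lines did not overlap from day 16 on, and PARP12 was higher in PA cells by 1.53 ± 0.27, adjusted p = 0.00117 at day 16, 3.42 ± 0.26, adjusted p = 6.19e-07 at day 28 and 4.29 ± 0.27, adjusted p = 1.28e-07 at day 45. The difference of the day 28 steps was 1.89 ± 0.38, adjusted p = 0.00202. The rise in PA cells from day 28 to day 45 (1.13 ± 0.22, adjusted p = 0.000939) was 0.90 without replicate 1 of day 45. PARP14 was at 2.04 and 2.24 CPM at day 28 and 0.414 and 0.460 CPM at day 45 in IVF cells, a fall of -2.28 ± 0.52, adjusted p = 0.00493, and at 0.997 and 1.09 and 4.93 and 3.62 CPM in PA cells, a rise of 2.03 ± 0.49, adjusted p = 0.0058. The rise in PA cells was 1.96 without replicate 1 of day 28 and was then not called. On the log2(TPM + 1) scale the fall in IVF cells was -0.76 and the rise in PA cells 0.92, both short of the 2-fold limit.

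For antigen processing, PSMB8 and PSMB9 are subunits of the immunoproteasome, and TAP1 is part of the peptide transporter. TAP1 was already present at day 0, at 26.0 and 22.4 at day 0, 26.2 and 28.6 at day 16, 36.6 and 37.6 at day 28 and 31.8 and 37.4 at day 45 CPM in IVF cells. PA cells stood at 30.8 and 31.0 at day 0, 28.4 and 28.1 at day 16, 74.1 and 87.6 at day 28 and 53.1 and 36.7 at day 45 CPM. It rose in PA cells from day 16 to day 28 (1.52 ± 0.16, adjusted p = 1.35e-06) and was then higher than in IVF cells (1.12 ± 0.16, adjusted p = 6.59e-05), with no overlap. Without replicate 2 of PA cells at day 28 that difference was 0.998, below the 2-fold limit, and was not called. PSMB8 was at 0.245 and 0.502 at day 0, 0 and 0.0639 at day 16, 0.574 and 0.489 at day 28 and 1.77 and 1.32 at day 45 CPM in IVF and at 0.686 and 1.18 at day 0, 0.0909 and 0 at day 16, 0.259 and 0.350 at day 28 and 3.77 and 2.91 at day 45 CPM in PA cells. It had 28 counts at day 0 and 3 at day 16 in IVF cells, 11.8-fold lower (counting interval 3.63 to 60.5), and 53 at day 28, 16.7-fold higher (5.41 to 83.6). From day 28 to day 45 it rose in PA cells (3.45 ± 0.59, adjusted p = 0.000322). The call of a rise in IVF cells (1.53 ± 0.56, adjusted p = 0.0396) was lost without any 1 of 6 libraries, such as replicate 1 of day 45 (1.31). PSMB9 stayed below 2 CPM in all libraries and rose from day 16 to day 45 in both lines (2.27 ± 0.60 in IVF, 3.31 ± 0.66 in PA). Without replicate 1 of IVF cells at day 16 the IVF value was 1.71 and was not called (adjusted p = 0.0689).

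The fold changes of genes with and without an ISRE core can be set side by side. From day 16 to day 28 the 19 genes with a core had a median of 2.57 in IVF and 2.97 in PA cells, and the 17 without one 2.43 and 2.72. In each line 14 of 19 and 13 of 17 rose, where 10.1% of all genes tested rose in IVF and 18.3% in PA cells. From day 0 to day 16 in IVF cells the medians were 0.18 with and 1.30 without a core. These medians are descriptions, and no match in this window says only that these letters are not there.

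Interferon transcripts themselves were scarce. The table holds 42 genes described as interferons. Leaving out IFNE, they summed to 0 to 26 counts per library at days 0 and 16 and to 44 to 180 at days 28 and 45. No single gene of these was over 88 counts. IFNB1 had 2 counts in 1 library, and IFNG and IFNK had 0 in all 16. IFNE, a type I interferon of epithelia, had 132 and 122 counts at day 0 in IVF cells and 62 and 64 in PA cells, and at most 13 later. Many porcine interferon genes are near-identical copies, so counts of single genes are uncertain.

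Genes of the receptor and its kinases were followed beside the set. IFNAR1, a chain of the type I receptor, was at 16.3 and 17.6 CPM at day 0 and 115 and 126 CPM at day 28 in IVF cells, and at 12.7 and 11.9 and 165 and 167 CPM in PA cells. TYK2 stayed between 58.5 and 122 CPM in all libraries.

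Of 14 tested genes of sensing upstream of interferon, 4 rose from day 16 to day 28 in IVF cells (10.1% of all genes), and 2 rose and 1 fell in PA cells (18.3% and 16.2%). Between days 28 and 45, 2 rose and 1 fell in IVF cells (10.1% and 6.61%) and 6 rose in PA cells (11.0%). The RNA-editing enzyme ADAR was at 89.6 and 94.2 CPM at day 16 and 228 and 222 CPM at day 28 in IVF cells. PA cells were at 79.5 and 72.1 and 153 and 163 CPM on those days. IRF3 and MAVS stayed between 22.4 and 48.1 CPM in all 16 libraries. Of the 10 negative regulators, 2 rose and 2 fell in IVF cells and 1 rose and 2 fell in PA cells from day 16 to day 28, where 10.1% and 11.6% of all genes did in IVF and 18.3% and 16.2% in PA cells. Over the step from day 28 to day 45, 4 rose in each line (10.1% of all genes in IVF, 11.0% in PA cells). SAMHD1 was at 161 and 165 CPM at day 0 and 38.8 and 41.7 CPM at day 28 in IVF cells.

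Antigen presentation outside the set was followed by 15 genes of class I presentation. From day 16 to day 28, 8 rose in IVF cells (10.1% of all genes), and 7 rose and 1 fell in PA cells (18.3% and 16.2%). Between days 28 and 45, 7 rose and 1 fell in IVF cells (10.1% and 6.61% of all genes), where 3 members of the set rose and 7 fell, and 11 rose in PA cells (11.0%). B2M, the light chain of class I molecules, was at 8.37 and 7.71 at day 0, 6.21 and 6.92 at day 16, 85.9 and 72.2 at day 28 and 194 and 137 at day 45 CPM in IVF cells. In the PA libraries it was at 7.40 and 8.37 at day 0, 2.07 and 2.78 at day 16, 32.3 and 35.7 at day 28 and 201 and 113 at day 45 CPM. The class I heavy chain SLA-2 reached 386 and 321 CPM in IVF and 204 and 80.2 CPM in PA cells at day 45, and is a member of a family of near-identical genes. Of 9 tested genes induced mainly by interferon gamma, 3 rose and 1 fell from day 16 to day 28 in IVF cells and 2 rose in PA cells, against 10.1% and 11.6% and 18.3% of all genes. Over the step to day 45, 3 rose and 1 fell in IVF cells and 6 rose in PA cells, against 10.1% and 6.61% and 11.0%.

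A further 19 tested interferon-stimulated genes outside the set gave 10 that rose and 1 that fell from day 16 to day 28 in IVF cells, and 6 and 1 in PA cells, against 10.1% and 11.6% of all genes in IVF and 18.3% and 16.2% in PA cells. The median log2 fold changes of this list were 1.40 and 0.53. From day 28 to day 45, 5 rose and 2 fell in IVF cells (10.1% and 6.61% of all genes) and 13 rose in PA cells (11.0%), with medians of 0.092 and 1.58. LGALS3BP was at 23.2 and 31.2 at day 16 and 473 and 403 at day 28 CPM in IVF and at 10.4 and 9.58 at day 16 and 212 and 213 at day 28 CPM in PA cells. LAP3 ran the other way, at 214 and 224 CPM at day 0 and 25.8 and 17.8 CPM at day 28 in IVF cells. After the table was seen, 2 rows were found that are described as IFIT5 (LOC100151816) and SAMD9 (LOC100519098). The first stayed between 20.6 and 45.4 CPM in all libraries. The second had 0 counts at day 0 in both lines and was at 2.63 and 2.57 CPM at day 28 in IVF cells and 2.92 and 1.75 CPM at day 45 in PA cells.

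Cell types that could bring such genes were followed by their markers. Of 12 microglia and macrophage markers, TYROBP, P2RY12 and C1QB had 0 counts in all 16 libraries, and PTPRC, CX3CR1 and C1QC stayed at or below 0.137 CPM. SPI1 was at 1.06 to 5.83 CPM, C1QA at 0 to 3.86, CD68 at 0.167 to 1.81 and AIF1 at 0 to 0.626 CPM. CSF1R had 0 counts at days 0 and 16. At day 45 CSF1R was at 0.502 and 0.320 CPM in IVF and 0.729 and 0.378 CPM in PA cells. The list summed to 3.30 to 4.05, 25.2 to 28.4 and 18.6 to 22.9 CPM at days 16, 28 and 45 in IVF cells. In PA cells it summed to 4.40 to 6.29, 8.61 to 9.13 and 16.6 to 22.1 CPM at days 16, 28 and 45. MS4A7 was at 0 CPM at day 16 in IVF cells and at 21.4 and 24.6 CPM at day 28, and in PA cells it was at 0.363 and 0.125 CPM at day 16, 6.22 and 5.66 CPM at day 28 and 16.3 and 7.60 CPM at day 45. Of 8 lymphocyte markers, CD3E, CD3G and MS4A1 had 0 counts in all libraries, and the list summed to 28.2 to 29.7 CPM in IVF and 14.3 to 21.3 CPM in PA cells at day 45, of which NKG7 made up to 25.8 CPM. The vascular leptomeningeal and fibroblast markers summed to 1008 to 1437 CPM in IVF and 920.4 to 2203 CPM in PA cells at day 45, and none of them was at 0 in those libraries. The 8 astrocyte markers in the table summed to 262 to 366 and 518 to 1041 CPM there, and to 121 to 127 and 180.3 to 180.6 CPM at day 28. Of the day 45 sums SPARCL1 made 166 and 220 CPM in IVF and 867 and 397 CPM in PA cells. GFAP and AQP4 were at or below 6.82 CPM. In PA cells replicate 1 of day 45 was the higher in the interferon response genes and in IFI6. The part of these cell types in the result was not tested.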

How the data were processed

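Poly-A RNA libraries (TruSeq Stranded mRNA, paired reads) were made from 2 lines at 4 days. Per the study, Sscrofa11.1 was the genome, HISAT2 2.1.0 the aligner after trimming by Trimmomatic 0.38, and StringTie 2.1.3b the quantifier after sorting by SAMtools 1.9. The strand setting of the counting is not given in the sources used here. Whole read counts per gene, unscaled, were deposited by the authors. The deposited TPM values were scaled by the authors to gene length and library size, and were used to compare levels between genes and for 1 alternative. FPKM values, which the authors also deposited, were not used. Of 28232 gene IDs, 28208 matched the annotation, and the other 24 are mitochondrial RNA genes.

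Counts were analysed in R 4.3.3 with edgeR 4.0.16 and limma 3.58.1 after reading tables by data.table (version 1.17.8): filterByExpr over the 8 groups, TMM scaling and a quasi-likelihood fit of 8 group means over all 16 libraries (8 residual degrees of freedom). All genes tested were adjusted together by Benjamini-Hochberg. The fit was also run on simulated counts with the same spread in every gene and group and with low-count genes left out. That run says nothing about members near 0 counts or groups of unequal spread. The bound on a fold against a group at 0 takes 3 counts over that group, and counting intervals are exact at 95% and cover counting error only. In a single library 3 counts are 0.0594 to 0.0815 CPM. Promoter windows were read in Python 3.11.15 with pandas 2.3.3, and figures were drawn with matplotlib 3.10.9. The members and the other gene lists were chosen with earlier results of these data known. Values in every library are given for the 2 members of each role with the highest mean CPM (1 for a role with 2 members) and for members called against the direction of most. From each pathway list up to 3 genes with the highest mean CPM were to be named. Some results of the pathway lists are not reported here. Not all of these could be given in full, and other members are named with fewer values. Alternatives were other scalings, filters and samples, the replicate number as a block, each library left out, DESeq2 1.42.0 and limma on log2(TPM + 1).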

Additional observations from a re-analysis of the deposited data

Results flagged for a closer look

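The steps of the 2 lines differed for many interferon response genes, each by an interaction contrast in the edgeR fit that differed at least 2-fold with a Benjamini-Hochberg adjusted p below 0.05. From day 0 to day 16 the step of PA cells was lower for 13 genes, against 4.56% of all genes tested. Among those named by rule, the log2 difference was -4.78 for IFI6, -3.35 for ISG15, -2.87 for DTX3L, -2.15 for PARP9, -2.15 for MX1, -2.14 for DHX58, -1.91 for IRF9 and -1.69 for HERC5. PARP9 was no longer called with any 1 of several libraries left out, with -1.82 without replicate 1 of PA cells at day 16. DTX3L was -2.34 without replicate 2 of IVF cells at day 16 and -2.30 without that PA library.

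Between days 16 and 28 the step of PA cells was higher for 11 genes and lower for 3, against 9.84% and 5.35% of all genes tested. The difference was 5.55 for IFIT1, a fitted value against a group at 0, 2.67 for ISG15, 2.26 for IFI6, 1.30 for IRF9, 1.26 for DHX58, 1.08 for TAP1 and -1.20 for HERC5. Without replicate 2 of PA cells IFIT1 (day 16) was at 5.55 and TAP1 (day 28) at 0.95, and neither was called.

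From day 28 to day 45 the step of PA cells was higher for 23 genes, against 7.87% of all genes tested. The difference was 2.24 for IFIT3, 2.15 for HERC5, 2.12 for IFIT1, 2.06 for DTX3L, 1.97 for PARP9, 1.88 for MX1, 1.72 for IFIH1, 1.49 for DHX58, 1.40 for STAT2, 1.35 for ISG15, 1.32 for IFI44L and 1.21 for OAS2. Without replicate 1 of PA cells at day 45 OAS2 was 0.92 and IFI44L 0.92, and IFI44L was lost without 5 other libraries as well. ISG15 was 0.99 without replicate 2 of IVF cells at day 45 and 1.14 without replicate 1 of PA cells at day 28. With 2 libraries in each group, no group was large enough to look for a library that stands apart.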

How the results depend on the processing

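Of 293 calls of single interferon response genes over the 15 comparisons, 199 were kept in every alternative, 94 were lost in at least 1 and 62 without 1 library. The IFIT1, IFIT2 and MX2 contrasts of the day 28 step turned to -0.80, -0.73 and -0.41 on log2(TPM + 1), where a gene near 0 weighs little. With total counts as the scale, the median over all genes shifted by 0.12 for the first IVF step, by 0.13 for the PA span from day 16 to day 45 and by 0.11 for the day 45 contrast. With 25 members that have counts in all 16 libraries, the genes that rose were 10 (IVF) and 4 (PA) at day 16, 17 in each line at day 28 and 18 (IVF, day 45 against day 16), those that fell in IVF cells 2 at day 28 and 1 at day 45, those higher in PA cells 5 at day 45 and those with a higher day 45 step 14. The medians were then 2.08 and 1.94 (IVF and PA, day 28), 1.81 and 3.32 (day 45 against 16), -0.75 (PA, day 16) and -0.72 (lines at day 28). By DESeq2 with the criterion of the study on those genes, 10 and 4 rose at day 16, 2 fell at day 28 in IVF cells, 1 rose and 3 fell at day 45 in IVF cells, 16 rose in PA cells, 18 rose in IVF cells from day 16 to day 45, 5 were higher in PA cells at day 45, and 2 and 14 had a higher step by days 16 and 45.

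By limma on log2(TPM + 1), 9 rose and 1 fell (IVF) and 3 rose and 6 fell (PA) at day 16, 0 fell in IVF cells from day 16 to day 28 or to day 45, 1 rose at day 45 in IVF cells, 1 was higher and 1 lower in PA cells at day 0 and 0 higher at day 16. The medians were then 0.22, 1.83, -0.30 and 1.31 for the IVF steps and span, -0.0088, 1.73, 1.04 and 2.91 for PA, 0.0064, -0.39 and -0.67 for the lines at days 0, 16 and 28, and -0.42 and 0.0071 for the first 2 step contrasts. Without the fold minimum 7 fell at day 16 and 5 rose and 12 fell at day 45 in IVF cells, 1 fell at day 45 in PA cells, 5 and 2 were higher in PA cells at days 0 and 16, 23 lower at day 28, 20 higher and 1 lower at day 45, and 1 had a higher step at day 16 and 1 a lower step at day 45. With only the libraries compared, 2 fell in IVF cells at day 16 and 2 at day 28, 4 were higher in PA cells at day 0, and the PA median at day 16 was -0.72, which total counts put at -0.11. With no filter 1 was lower in PA cells at day 45. With 1 mismatch allowed, 73.0% of members and 37.8% of all windows held the ISRE core.

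With the replicate number as a block, 1 gene and not 0 was lower in PA cells at day 45, and no other count of calls moved by over 1.5 times. Samples with the same number did not deviate together (correlations of -0.050 to 0.12 over 28 pairs of groups). The numbers thus gave no sign of a pairing, but the labels do not say whether they mark matched cultures.

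Leaving out each library in turn, the genes that fell in IVF cells were 2 to 5 at day 16, 1 to 2 at day 28 and 3 to 7 at day 45, those that rose there at day 45 were 1 to 4, those that fell in PA cells at day 45 were 0 to 1, those lower in PA cells at day 45 were 0 to 2, and the step contrasts gave 0 to 2 higher at day 16 and 0 to 1 lower at day 45. The medians ran from 0.62 to 1.00, -0.15 to 0.024 and 1.81 to 2.82 (IVF, days 16 and 45, and day 45 against 16), from -0.29 to -0.067, 2.65 to 3.16 and 1.28 to 1.77 (PA steps), from 0 to 0.36, -1.18 to -0.73 and -1.03 to -0.73 (lines at days 0, 16 and 28), and from -1.72 to -1.02 and 1.30 to 1.78 (step contrasts at days 16 and 45). With 2 libraries a group, leaving out 1 assumes that the lone library varies like the other groups.

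Each origin is 1 line, the replicates are not said to be separate cultures, and the PA replicates at day 45 differ most, while the fit shares 1 spread per gene over all groups. At 39247693 to 52165867 counts a library, members with 0 counts are not detectable rather than absent.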
